A study of Mus musculus with 16 samples.

Results

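Genes known from endothelial cells and macrophages were followed through cultures of mouse spermatogonial stem cells in which Etv5 had been knocked down. The set held 8 genes, the endothelial genes Plvap, Ramp2, Pecam1 and Cdh5 and the macrophage genes Mrc1, Lyz2, Csf1r and Cd68, read by 11 probe sets of 45037 on the array. Mrc1, Plvap, Ramp2 and Lyz2 were chosen by their measured intensity, which was lower in Etv5 knockdown than in control, so for these 4 genes that contrast is described without a test. The other 4 were added as further markers of the same 2 cell types. Mrc1, Plvap and Ramp2 were 2.13-fold to 2.48-fold lower in Etv5 knockdown with no overlap between the groups. Such a separation in the lower direction held for 10.4% of all tested genes. Lyz2 was lower with overlap, Cd68 and Csf1r were not called, and Pecam1 and Cdh5 were too dim to show a change. Of the 8 genes 6 were bright enough to be tested among 11145 genes. Pecam1 and Cdh5 were not, and their values come from a fit of all probe sets.

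The cultures had been started from germ cells of C57BL/6 mice enriched for Thy1, and were kept in a defined medium without serum, to which 20 ng/ml GDNF, 150 ng/ml GFRA1 and 1 ng/ml FGF2 had been added. All were treated for 30 h with short interfering RNA (siRNA). The 16 arrays formed 4 groups of 4, with siRNA against Etv5, against Bcl6b, against Pou3f1, or a negative control siRNA. The knockdown was transient, and RNA of the whole culture was measured, so a value cannot be given to one kind of cell. No label ties replicates to separate cultures, and p-values then measure the spread between these samples, which may be technical.

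Endothelial cells line blood vessels. VE-cadherin (Cdh5) and PECAM-1 (Pecam1) hold their junctions together, PLVAP forms the diaphragms that span fenestrae and caveolae, and RAMP2 joins the receptor encoded by Calcrl to make a receptor for adrenomedullin. Macrophages depend on the CSF1 receptor (Csf1r) and carry the lysosomal glycoprotein CD68, the mannose receptor (Mrc1) and lysozyme (Lyz2), and the testis holds a resident population of them beside its vessels. ETV5 is a transcription factor of the ETS family, whose members bind DNA at a GGAA core, and it is needed for the upkeep of spermatogonial stem cells.

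Median array intensity was between 15.6 and 17.1. Etv5 read 912, 912, 1676 and 898 in Etv5 knockdown, against 2882, 3072, 2999 and 2922 in control, a log2 difference of -1.49 ± 0.21 (SE; limma adjusted p 0.00115). Replicate 3 of Etv5 knockdown thus kept more Etv5 signal than the other replicates, as it did on the other 2 Etv5 probe sets (252 and 420, against at most 130 and 205 on the other Etv5 knockdown arrays). Bcl6b knockdown replicate 1 stood apart from all other arrays. Its Actb signal was 3.08 higher (log2) at the 3' than at the 5' control probe set, against 0.62 to 0.76 on the other 15 arrays, and it correlated with the rest at a mean r of 0.975, where the others reached 0.996 to 0.997. Differences from Bcl6b knockdown or of Bcl6b knockdown from control are therefore given with and without it.

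Pecam1, Cdh5 and Csf1r, defining markers of the 2 cell types, were dim or at the floor of the arrays, in control as in the knockdowns. Cdh5 read 4.9 to 5.1 in Etv5 knockdown and 4.9 to 5.0 in control by its brighter probe set, and 4.2 to 4.3 against 4.1 to 4.2 by the other. Its mean level in control was at percentile 22.8 of all probe sets, and that of Pecam1, at 6.1 to 6.6 in Etv5 knockdown and 6.5 to 7.3 in control, was at percentile 36.9. Csf1r reached 15.1 to 17.9 in Etv5 knockdown and 16.3 to 18.9 in control by its brightest probe set, at percentile 50.6, while its other 2 probe sets stayed between 3.3 and 4.3 on all 16 arrays. The signal of these 3 markers thus goes against the name of the set as a report on endothelial cells and macrophages, and the genes are called here by their own names.

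The wider lists held both dim and bright markers. Of 30 endothelial markers 19 were too dim to be tested, among them Kdr, Tie1, Cldn5 and Vwf, and of 30 macrophage markers 15 were too dim, among them Adgre1, Itgam, Spi1 and C1qa. The median percentile in control was 36.6 for endothelial and 49.7 for macrophage markers. It was 88.6 for 16 germ cell markers, 98.8 for 18 fibroblast and feeder markers and 44.0 for 12 Sertoli and Leydig cell markers. Other markers were well above the floor, such as Cd34 (percentile 91.6), Egfl7 (72.7), S1pr1 (69.9) and Erg (69.3) among the endothelial ones and Coro1a (79.8), Laptm5 (73.0), Tyrobp (67.8) and Cd14 (65.3) among the macrophage ones. Plvap (percentile 70.6), Mrc1 (60.8), Lyz2 (60.0) and Ramp2 (57.1) were above the middle of the array. So was Cd68 (55.8), which had not been chosen for a lower value, and Csf1r (50.6) was just above it. Probe sets bind unequally, so a percentile says only how near the floor a signal lies and does not rank genes by their RNA.

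**Figure D1:**
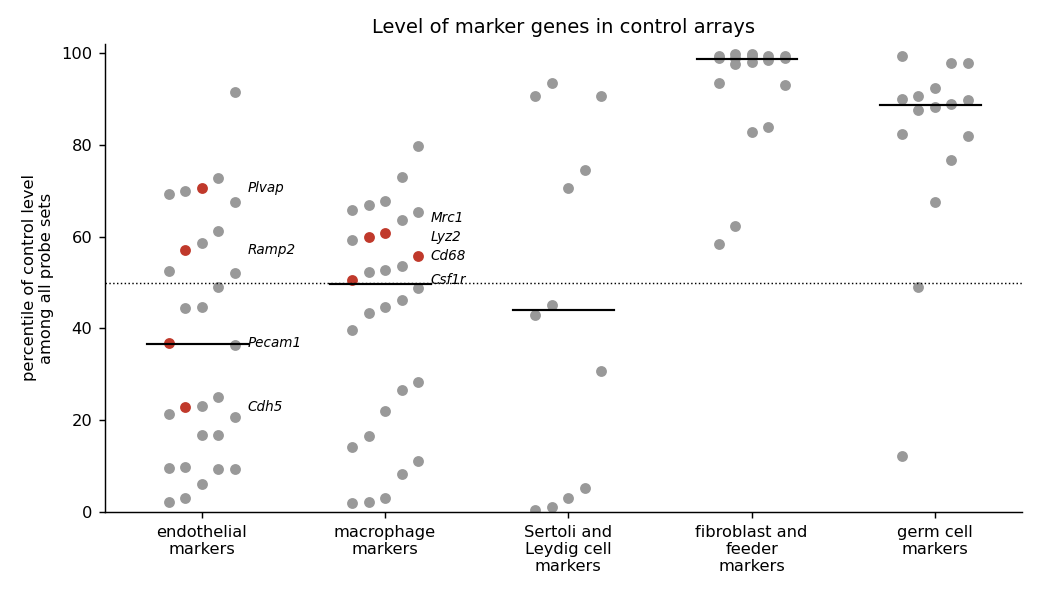
Each point is 1 gene, placed by the percentile of its mean log2 level over the 4 control arrays among all 45037 probe sets; lines are list medians, the dotted line is percentile 50, and red points are the 8 genes described. Pecam1 and Cdh5 lie at percentiles 36.9 and 22.8, and the medians of the fibroblast and germ cell markers lie at 98.8 and 88.6.

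Plvap, the diaphragm protein gene, read 83.6, 87.2, 174 and 80.8 in Etv5 knockdown, against 245, 265, 238 and 249 in control. All 4 knockdown arrays were below all control arrays, as for 10.4% of all tested genes. Replicate 3, which kept the most Etv5, also kept the most Plvap. The means were 106 ± 45.3 in Etv5 knockdown and 249 ± 11.4 in control (SD, n = 4 each), a log2 difference of -1.30 ± 0.19 (SE), which is 2.46-fold lower on the scale of log2(value + 1). In bulk RNA, fewer cells of a type and less RNA per cell cannot be told apart.

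Ramp2 read 27.2, 19.2, 27.4 and 17.5 in Etv5 knockdown, against 50.6, 49.4, 48.1 and 46.8 in control. The groups did not overlap, and the control arrays were close to each other. The log2 difference was -1.09 ± 0.15 (SE, n = 4 each), or 2.13-fold lower. A further 2 probe sets are annotated to Ramp2 together with its neighbour Vps25, a subunit of the endosomal sorting machinery, and cannot be assigned to either gene. One of them read 972 to 1084 in Etv5 knockdown and 1022 to 1141 in control, and the other 1238 to 1351 and 1258 to 1332, so that the groups overlapped on both. Their log2 differences were -0.06 and -0.02.

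Mrc1, which encodes the mannose receptor, read 27.9, 22.6, 45.3 and 40.1 in Etv5 knockdown, against 88.4, 84.9, 80.1 and 77.4 in control. Again the groups did not overlap, and replicate 3 was the highest of the knockdown arrays. The log2 difference was -1.31 ± 0.20 (SE, n = 4 each), or 2.48-fold lower.

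Lyz2 differed from these 3 genes in its scatter. It read 27.3, 51.7, 9.7 and 24.6 in Etv5 knockdown, against 79.8, 46.9, 69.6 and 116 in control. The groups overlapped through Etv5 knockdown replicate 2 and control replicate 2, and the lowest array was replicate 3, the one on which Plvap and Mrc1 were highest. The log2 difference was -1.57 ± 0.42 (SE, n = 4 each), or 2.97-fold lower, with a 95% interval from -2.46 to -0.68.

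The lysozyme genes Lyz1 and Lyz2 are near-identical neighbours, so their probe sets may share signal and the split between them is uncertain. The brightest Lyz1 probe set read 159, 226, 101 and 130 in Etv5 knockdown, against 222, 150, 175 and 329 in control. Etv5 knockdown replicate 3 was lowest and control replicate 4 highest, as for Lyz2. Its log2 difference of -0.50 ± 0.25 did not pass the test (limma adjusted p 0.49), with a 95% interval from -1.03 to 0.03. A second Lyz1 probe set differed by -0.38, and the remaining one stayed between 4.7 and 5.0 on all arrays.

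Promoter sequence is shown for Mrc1, Lyz2 and Cd68, 3 of the 8 genes, because ETS factors bind a GGAA core. Plvap, Ramp2, Pecam1, Cdh5 and Csf1r are not shown, so the counts below compare no genes that were lower with genes that were not. The 250 bases before the annotated start are from RefSeq (GRCm38.p6), 5′ to 3′ on the strand of the gene, with each match to GGAAG, on this strand or as CTTCC on the other, in capitals.
Mrc1 (chr2:14229164-14229413, plus strand): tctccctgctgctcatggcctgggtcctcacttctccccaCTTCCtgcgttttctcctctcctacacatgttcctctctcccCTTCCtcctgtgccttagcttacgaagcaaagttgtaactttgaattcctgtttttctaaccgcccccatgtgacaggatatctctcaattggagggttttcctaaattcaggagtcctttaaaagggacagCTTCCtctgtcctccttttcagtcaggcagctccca
Lyz2 (chr10:117282273-117282522, minus strand): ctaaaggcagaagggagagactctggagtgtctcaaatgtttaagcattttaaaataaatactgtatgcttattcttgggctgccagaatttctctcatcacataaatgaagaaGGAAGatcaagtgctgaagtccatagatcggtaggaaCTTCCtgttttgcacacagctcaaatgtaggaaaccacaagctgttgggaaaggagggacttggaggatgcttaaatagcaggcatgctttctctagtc
Cd68 (chr11:69666171-69666420, minus strand): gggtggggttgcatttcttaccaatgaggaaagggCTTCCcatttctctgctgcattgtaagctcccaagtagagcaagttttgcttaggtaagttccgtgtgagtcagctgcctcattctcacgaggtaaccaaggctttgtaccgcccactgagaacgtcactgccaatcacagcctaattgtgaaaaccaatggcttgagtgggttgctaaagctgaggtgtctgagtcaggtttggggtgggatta
The Mrc1 window holds 3 such matches, all as CTTCC, the Lyz2 window 2, with 1 on each strand, and the Cd68 window 1. Of 32851 promoter windows of this length 64.1% hold at least 1 match, 29.4% at least 2 and 10.7% at least 3. The bare core GGAA, which every GGAAG contains, occurs 6 times in the Mrc1, 5 times in the Lyz2 and 3 times in the Cd68 window, and in 93.4% of all windows. The longer form GAGGAA, which can overlap GGAAG, occurs 3 times in the Mrc1 window, 0 times in that of Lyz2 and once in that of Cd68, and 23.3% of all windows hold it and 0.429% hold at least 3. The form CCGGAA occurs 0 times in the windows of these 3 genes, and in 12.0% of all windows. A match is a run of letters and was not measured as a site.

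**Figure D2:**
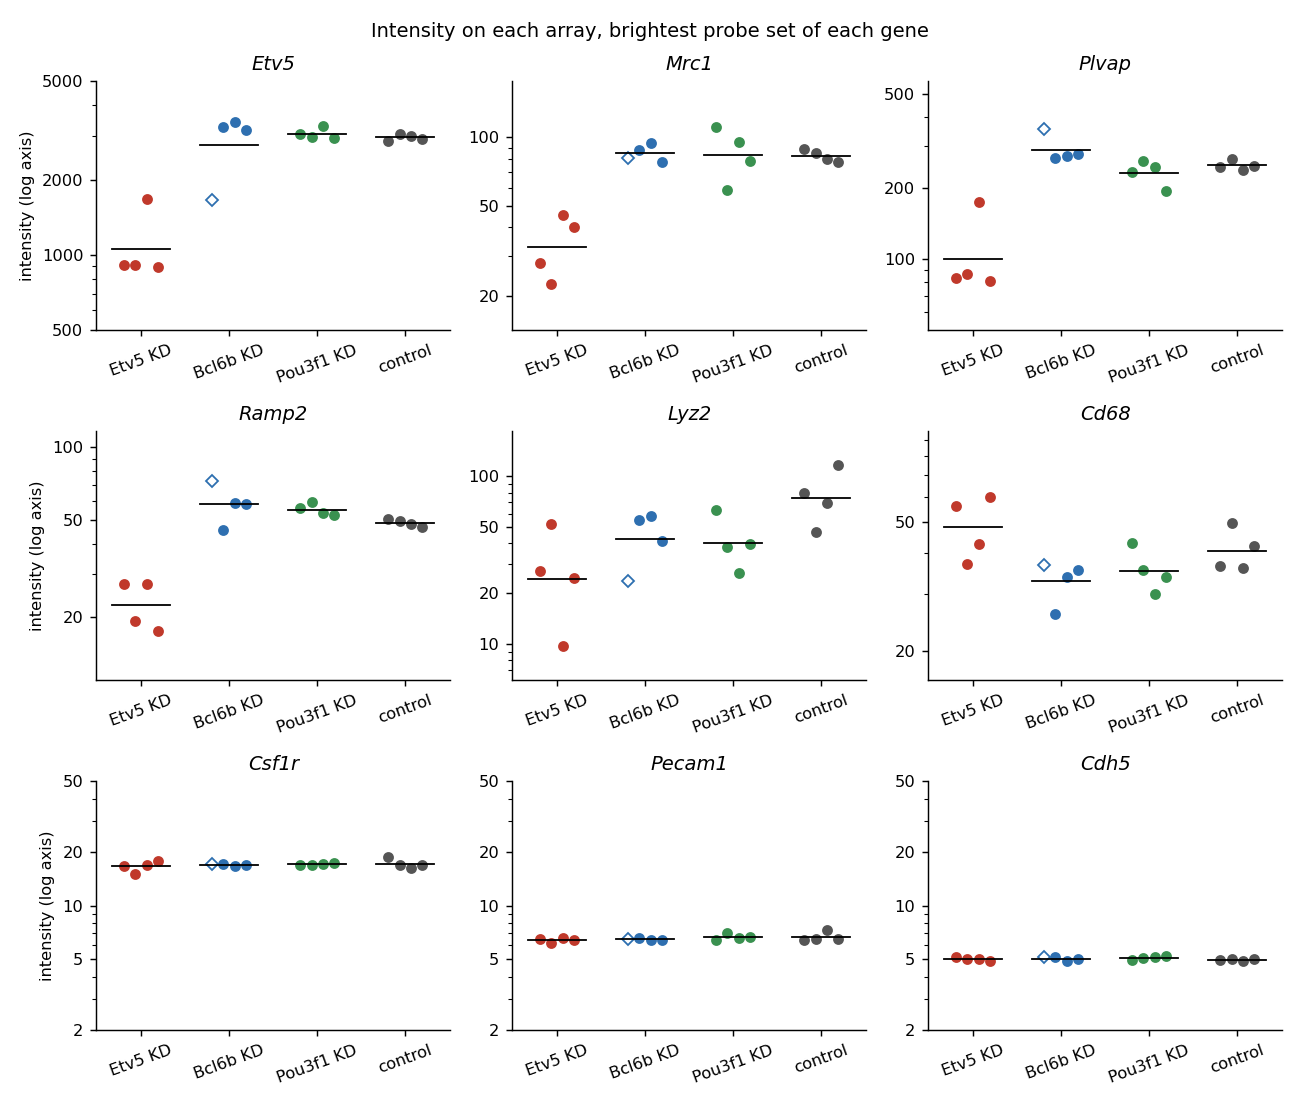
Intensity on each array (log axis) of Etv5 and the 8 genes, by group; each point is 1 array, the open diamond is Bcl6b knockdown replicate 1, and bars are means of log2 values put back on the linear scale. Mrc1, Plvap and Ramp2 are separated between Etv5 knockdown and control, Lyz2 and Cd68 overlap, and Csf1r, Pecam1 and Cdh5 are dim and flat.

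Mrc1, Plvap and Ramp2 were among the genes called lower in Etv5 knockdown, where 0.781% of tested genes were called lower at an adjusted p under 0.05, and Lyz2 was not. Without Bcl6b knockdown replicate 1 all 4 were among them, with 4.94% of genes called lower. All knockdown arrays were below all control arrays for 3 of the 6 tested genes, and for 10.4% of all tested genes. In the fit of all probe sets 3 of the 11 probe sets of the 8 genes were called lower, as were 0.104% of all, and 4 without Bcl6b knockdown replicate 1, as were 1.08%. These counts follow from how the 4 genes were chosen and are given as a description.

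Of the 4 genes that had not been chosen for a lower value, 2 could be tested, and neither was called. Cd68, a lysosomal protein of macrophages, read 56.3, 37.2, 42.9 and 59.8 in Etv5 knockdown, against 36.5, 49.7, 36.0 and 42.1 in control. The groups overlapped, and the 2 highest arrays were knockdown arrays. The log2 difference was 0.24 ± 0.16 (SE, n = 4 each; limma adjusted p 0.707), with a 95% interval from -0.11 to 0.58. The interval therefore does not hold a fall of the size seen for Mrc1.

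Csf1r, the receptor for the macrophage growth factor CSF1, differed by -0.05 ± 0.07 (limma adjusted p 0.928), with a 95% interval from -0.20 to 0.10. In the fit of all probe sets Pecam1 differed by -0.06 and Cdh5 by 0.01 and 0.02 (limma adjusted p 0.929 for each), where 0.415% of all probe sets were called. Pecam1 and Cdh5 were near the floor, where differences are compressed, so a change in them was not detectable on these arrays. Csf1r was dim too, close to the median array intensity of 15.6 to 17.1, so its narrow interval may also reflect compression. Of these 2 tested genes, Cd68 and Csf1r, 0 were called in either direction by limma, and 0 had an unadjusted p under 0.05. All genes together gave 2.09% called in either direction.

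The Bcl6b and Pou3f1 knockdowns share the control arrays with the Etv5 comparison, so their differences are set side by side rather than counted as separate evidence. Plvap read 353, 267, 272 and 278 in Bcl6b knockdown, and 235, 261, 246 and 194 in Pou3f1 knockdown. These arrays were all above the highest Etv5 knockdown array. The log2 difference from control was 0.22 ± 0.19 in Bcl6b knockdown (limma adjusted p 0.52), 0.13 without replicate 1, and -0.10 ± 0.19 in Pou3f1 knockdown (adjusted p 0.934).

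Ramp2 read 73.0, 45.6, 58.8 and 58.5 in Bcl6b knockdown, and 56.2, 59.6, 53.4 and 52.6 in Pou3f1 knockdown. Replicate 1 of Bcl6b knockdown was the highest of all arrays for both Plvap and Ramp2. The differences of Ramp2 from control were 0.25 ± 0.15 in Bcl6b knockdown (limma adjusted p 0.344), 0.14 without replicate 1, and 0.18 ± 0.15 in Pou3f1 knockdown (adjusted p 0.72). Mrc1 read 81.3, 88.0, 94.6 and 77.6 in Bcl6b knockdown, and 111, 58.5, 95.1 and 78.9 in Pou3f1 knockdown. Its differences were 0.04 ± 0.20 (adjusted p 0.923), 0.06 without Bcl6b knockdown replicate 1, and 0.02 ± 0.20 (adjusted p 0.994).

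Lyz2 was the exception, with values below the control mean in every knockdown. It read 23.7, 55.0, 57.7 and 41.3 in Bcl6b knockdown, and 63.2, 37.8, 26.6 and 39.7 in Pou3f1 knockdown, while control averaged 78.2 ± 28.9 (SD, n = 4). Both groups overlapped with control. The log2 difference was -0.80 ± 0.42 in Bcl6b knockdown (limma adjusted p 0.301), -0.54 without replicate 1 (adjusted p 0.402), and -0.88 ± 0.42 in Pou3f1 knockdown (adjusted p 0.416).

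Cd68 read 36.9, 26.0, 33.7 and 35.7 in Bcl6b knockdown, and 43.1, 35.6, 29.9 and 33.8 in Pou3f1 knockdown. It differed from control by -0.31 ± 0.16 in Bcl6b knockdown (limma adjusted p 0.308), -0.36 without replicate 1 (adjusted p 0.17), and -0.20 ± 0.16 in Pou3f1 knockdown (adjusted p 0.723). By limma 0 of the 6 tested genes were called in either of these knockdowns, and 0 had an unadjusted p under 0.05 (1 in each without Bcl6b knockdown replicate 1). Of all tested genes 3.21% were called in Bcl6b knockdown and 2.25% in Pou3f1 knockdown.

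Set directly against the other knockdowns, the same 3 genes were lower in Etv5 knockdown. The Etv5 knockdown arrays had served to choose the genes, so these tests are not independent of the choice. Against Bcl6b knockdown the log2 difference was -1.52 for Plvap (limma adjusted p 0.00125), -1.34 for Ramp2 (0.000465) and -1.35 for Mrc1 (0.00295), where 0.583% of genes were called lower. Without Bcl6b knockdown replicate 1 these were -1.43, -1.23 and -1.37, all called lower, where 1.6% of genes were. A fit of only these 2 groups gave an adjusted p of 0.136 for each.

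Against Pou3f1 knockdown the differences were -1.20 for Plvap (limma adjusted p 0.00284), -1.27 for Ramp2 (0.000199) and -1.32 for Mrc1 (0.00165), where 0.511% of genes were called lower. In both comparisons all Etv5 knockdown arrays were below all arrays of the other knockdown for these 3 genes, which held for 3.37% and 4.49% of all tested genes. Here too the Etv5 knockdown arrays had served to choose the genes, so the calls and the separation are descriptive. Lyz2 did not pass against Bcl6b knockdown (-0.77, adjusted p 0.407, or -1.03 and 0.152 without replicate 1) or Pou3f1 knockdown (-0.69, adjusted p 0.743), so a difference between the knockdowns was not shown for it. The log2 level of Cd68 was above that of Bcl6b knockdown by 0.54 (adjusted p 0.137). Leaving out Bcl6b knockdown replicate 1 the difference was 0.60 and this p was 0.0454 in limma, with 2.91% of genes called higher. It was above Pou3f1 knockdown by 0.44 (adjusted p 0.341).

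The array-by-array level of the 3 genes was set beside that of Etv5. Over the 15 arrays without Bcl6b knockdown replicate 1, the gene whose log2 profile was most like that of Plvap, other than the 8, was Etv5 itself (Pearson r 0.981), followed by Lhx1 (0.962), a transcription factor gene of spermatogonial stem cells, and the neurofilament gene Nefm (0.955). For Mrc1 they were Mcam (0.937), which encodes a cell adhesion molecule, Etv5 (0.934) and the sphingosine kinase gene Sphk1 (0.928). For Ramp2 they were Tmem132e (0.961), Lhx1 (0.956) and the cytochrome gene Cyp2u1 (0.954). These values rest largely on the step between the Etv5 knockdown arrays and the rest, and are descriptive.

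With all 16 arrays Etv5 was no longer among the 3 closest genes. Etv5 read 1658 on Bcl6b knockdown replicate 1, where Plvap, Ramp2 and Mrc1 were not low. On the other 2 Etv5 probe sets that array read 62.0 and 51.1, the lowest of all arrays. It is the array set apart by its Actb 3' signal, and whether this lowered its Etv5 values was not tested. The closest genes were then Cd93, Lhx1 and Foxc2 for Plvap (0.959, 0.954 and 0.942), Tmem59l, Sphk1 and Smad6 for Mrc1 (0.925, 0.922 and 0.915), and Tmem132e, Cyp2u1 and Lhx1 for Ramp2 (0.961, 0.956 and 0.952). Cd93 encodes a surface glycoprotein of endothelial and myeloid cells, and averaged 103 in Etv5 knockdown and 187 in control.

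**Figure D3:**
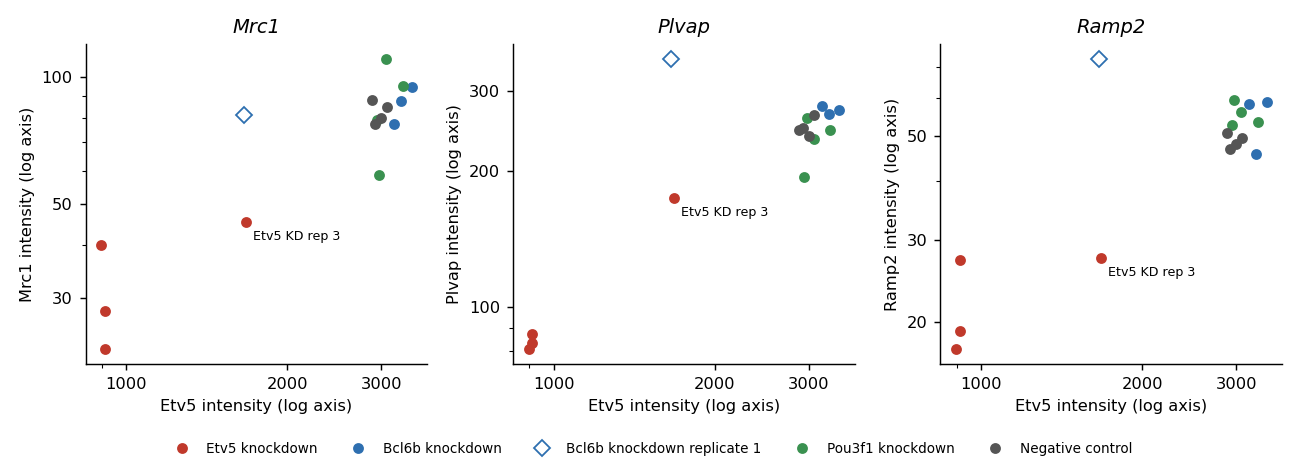
Intensity of Mrc1, Plvap and Ramp2 on each array against that of Etv5 (both axes log); colours mark the 4 groups and the open diamond is Bcl6b knockdown replicate 1. Etv5 knockdown replicate 3, with Etv5 at 1676, holds the highest Plvap (174) and Mrc1 (45.3) of its group. Bcl6b knockdown replicate 1, the array set apart by its Actb 3' signal, has Etv5 at 1658 on this probe set without low values of the 3 genes.

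With all arrays no other gene on the list of endothelial markers was called lower along with Plvap and Ramp2. Leaving those genes out, 9 endothelial markers were tested in Etv5 knockdown, of which limma called 0 lower and 1 higher, and 1 was lower and 1 higher at an unadjusted p under 0.05. Among all tested genes 0.781% were called lower and 1.31% higher. The median log2 difference of the 9 was -0.08, against -0.03 for all genes, with a range from -0.31 to 0.43. The lowest was Rasip1, a regulator of vessel formation (adjusted p 0.567). The list does not hold every endothelial gene. Cd93, found above by its likeness to Plvap, was not on it and had a log2 difference of -0.88. That likeness rests largely on the step in Etv5 knockdown, so the lower value of Cd93 follows from how it was found.

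The called gene was Erg, which encodes another ETS factor that is characteristic of endothelial cells. It read 300, 291, 255 and 345 in Etv5 knockdown, against 243, 196, 214 and 231 in control. The groups did not overlap. Such a separation in the lower direction held for 10.4% of all tested genes, and the share in the higher direction was not counted. Erg rose by 0.43 ± 0.10 on the log2 scale (SE, n = 4 each; limma adjusted p 0.0332), and its other probe set was at the floor, at 4.6 to 4.9 on all arrays. The call was lost under several alternatives, with an adjusted p of up to 0.121 when control replicate 2 was left out. Erg was also higher than in Bcl6b knockdown (0.49, limma adjusted p 0.0178, or 0.50 and 0.00524 without replicate 1), where 0.906% of genes were called higher with all arrays. Against Pou3f1 knockdown it did not pass the test with all arrays (0.40, limma adjusted p 0.0611). Without Bcl6b knockdown replicate 1 it did (adjusted p 0.0127), where 3.75% of genes were called higher.

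Cd34, a sialomucin of endothelial and stromal progenitor cells, averaged 1735 ± 104 in Etv5 knockdown, 1780 ± 39.6 in Bcl6b knockdown, 1665 ± 126 in Pou3f1 knockdown and 1967 ± 68.8 in control (SD, n = 4 each). It was called lower in Pou3f1 knockdown (-0.24, limma adjusted p 0.0348), where 1.22% of genes were, and in Etv5 knockdown without Bcl6b knockdown replicate 1 (-0.18, adjusted p 0.153 with all arrays and 0.0317 without it). The summed intensity of the 28 endothelial markers other than Plvap and Ramp2 was 2930 to 3192 in Etv5 knockdown, 3004 to 3074 in Bcl6b knockdown without replicate 1 (up to 3593 with it), 2864 to 3198 in Pou3f1 knockdown and 3129 to 3313 in control. Etv5 and Pou3f1 knockdown overlapped with control, and Bcl6b knockdown without replicate 1 lay below it. Cd34 alone, at a mean of 1967 in control, made up most of this sum, which therefore says little about the dimmer markers.

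Against the same control arrays, limma called 0 of these 9 markers in Bcl6b knockdown (2 lower and 1 higher at an unadjusted p under 0.05, or 0 called with 1 lower and 0 higher without replicate 1). With all arrays it called Cd34 alone in Pou3f1 knockdown. Without Bcl6b knockdown replicate 1 it called Cd34 lower (limma adjusted p 0.00483) and Egfl7 higher (0.28, adjusted p 0.0187) there. In that fit 7.08% of genes were called lower and 4.3% higher. Of the 13 macrophage markers described next it called 0 in either of these knockdowns (0 lower and 1 higher at an unadjusted p under 0.05 in each). Without Bcl6b knockdown replicate 1 it called 0 in Bcl6b knockdown, with 1 lower and 0 higher at that unadjusted p. It then called 0 in Pou3f1 knockdown as well, with 1 lower and 2 higher.

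With all arrays Mrc1, which had been chosen on this contrast, was the 1 macrophage marker called lower, out of 15 tested. Among all tested genes 0.781% were called lower and 1.31% higher. Leaving out Mrc1 and Lyz2, limma called 0 of 13 tested markers in Etv5 knockdown, and 1 was lower and 0 higher at an unadjusted p under 0.05. Their median log2 difference was 0.07, against -0.03 for all genes, with a range from -0.23 to 0.30. At the ends were Coro1a, an actin-binding protein gene of leukocytes (-0.23, adjusted p 0.0891, and 0.0179 without Bcl6b knockdown replicate 1), and the leukocyte phosphatase gene Ptprc (0.30, adjusted p 0.468). The summed intensity of the 28 macrophage markers other than Mrc1 and Lyz2 was 1945 to 2063 in Etv5 knockdown, 1904 to 2010 in Bcl6b knockdown without replicate 1 (up to 2919 with it), 1951 to 2117 in Pou3f1 knockdown and 1905 to 2025 in control. Each knockdown overlapped with control.

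**Figure D4:**
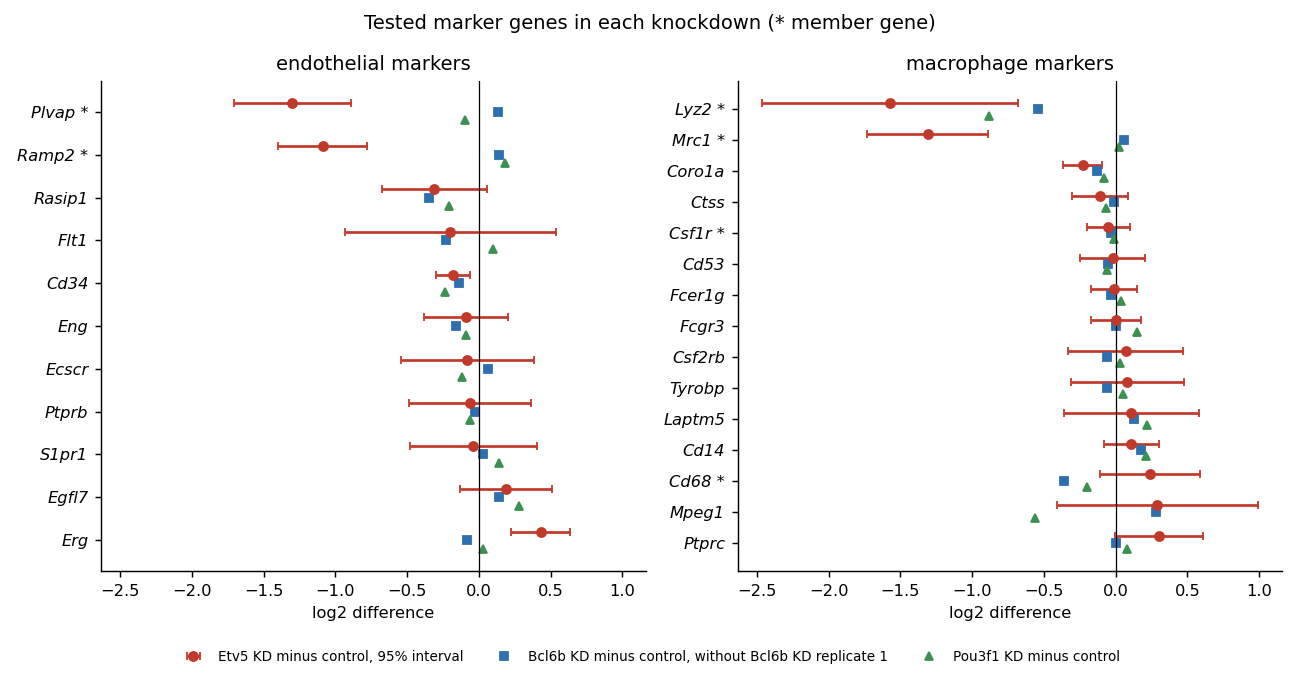
Log2 difference from control of the 11 tested endothelial and 15 tested macrophage markers in Etv5 knockdown (circles with 95% intervals from the fit of 16 arrays), Bcl6b knockdown without its replicate 1 (squares) and Pou3f1 knockdown (triangles); asterisks mark genes of the set of 8. Plvap, Ramp2 and Mrc1 lie below -1 in Etv5 knockdown and near 0 in the other knockdowns, Lyz2 is below 0 in all, and the other markers lie between -0.31 and 0.43 in Etv5 knockdown.

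Partners and relatives of the chosen genes were also read. Of 12 tested, limma called 0 in Etv5 knockdown, with 1 lower and 1 higher at an unadjusted p under 0.05. The other parts of the adrenomedullin system showed log2 differences from control of 0.14 for Calcrl, the receptor that RAMP2 joins (limma adjusted p 0.537), 0.09 for the ligand gene Adm (0.896), 0.06 for Ramp1 (0.914) and 0.04 for Ramp3 (0.983). Calcrl read 358 to 421 in Etv5 knockdown and 321 to 357 in control, and Adm 638 to 692 and 580 to 652. Ramp1 and Ramp3 were dim, at means of 27.0 and 16.9 in Etv5 knockdown and 25.8 and 16.4 in control.

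The mannose receptor family members Mrc2 and Ly75 differed by -0.08 and 0.10 (limma adjusted p 0.862 and 0.821). Csf1, which encodes the ligand of the CSF1 receptor, was bright, at a mean of 3003 in Etv5 knockdown and 3378 in control, with a difference of -0.17 (adjusted p 0.0806, and 0.0109 without Bcl6b knockdown replicate 1). It was called lower in Pou3f1 knockdown (-0.24, adjusted p 0.0104). The vascular growth factor genes Vegfa and Pgf differed by 0.18 and -0.08 (adjusted p 0.341 and 0.917), and the cadherin genes Cdh1 and Cdh2 by -0.15 and -0.05 (adjusted p 0.751 and 0.99).

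Among markers of the other cells that such cultures may hold, the intermediate filament gene Vim rose in Etv5 knockdown (0.33, limma adjusted p 0.00189), as it did in Bcl6b knockdown (0.29, adjusted p 0.00341, or 0.31 without replicate 1) and Pou3f1 knockdown (0.35, adjusted p 0.000967), where 1.65% and 1.03% of genes were called higher. It was the 1 of 18 tested fibroblast and feeder markers called in Etv5 knockdown, and 4 rose without Bcl6b knockdown replicate 1, with 4.58% of genes called higher. The summed intensity of that list was 217301 to 229181 in Etv5 knockdown, 215665 to 220661 in Bcl6b knockdown without replicate 1 (from 209926 with it), 212684 to 218404 in Pou3f1 knockdown and 211351 to 212317 in control. Apart from Bcl6b knockdown replicate 1, every knockdown array was above every control array in this sum. With that exception it held in Etv5, Bcl6b and Pou3f1 knockdown alike. Vim weighs heavily in the sum, with means of 41344 in Etv5 knockdown, 42180 in Pou3f1 knockdown and 32923 in control. Gene by gene the list did not rise as a whole. Its median log2 difference was 0.02 in Etv5 knockdown, -0.02 in Bcl6b knockdown and -0.04 in Pou3f1 knockdown, where 11 of the 18 genes were below 0. The part of this list in the lower Plvap, Ramp2 and Mrc1 was not tested. Of 5 Sertoli and Leydig cell markers 0 were called by limma in Etv5 knockdown (1 lower at an unadjusted p under 0.05), and 1 without Bcl6b knockdown replicate 1, Rhox5 (-0.15, adjusted p 0.0496). The next smallest p was that of Sox9 (-0.17). Of 14 germ cell markers 0 were called (3 lower and 3 higher at an unadjusted p under 0.05), the smallest p being those of Id4 (-0.34) and Zbtb16 (0.25). Without Bcl6b knockdown replicate 1, 4 were called, Id4 and Sall4 lower (adjusted p 0.00266 and 0.0228) and Zbtb16 and Kit higher (0.000835 and 0.0296). In that fit 4.94% of all tested genes were called lower and 4.58% higher. The germ cell list summed to 41962 to 43468 in Etv5 knockdown and 43097 to 43710 in control.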

How the data were processed

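The 16 samples were read on Affymetrix Mouse 430 2.0 arrays, 1 array each. The authors deposited 1 linear intensity per probe set and array, between 1.66 and 71511. Per the submitters' processing notes the tools were Partek 6.4, GCRMA, MAS5 and Affymetrix Expression Console 1.1; their roles and order are unknown, and so is whether GCRMA or MAS5 gave these values. Differences near the floor may be compressed.

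Probe sets were named from the platform annotation where it lists 1 gene (34945 of 45037, with 932 listing several and 9160 none). Each gene was read by its brightest probe set and was tested if it exceeded the array median on 4 or more arrays. After adding 1, log2 values of the 4 groups were fitted together with limma 3.58.1 (R 4.3.3, lmFit and eBayes with an intensity trend). All tests were two-sided. P-values were adjusted by Benjamini and Hochberg's method across the 11145 tested genes, with calls made below an adjusted value of 0.05. A second fit took all probe sets. The fit of genes was tested on simulated data with the spread of the arrays other than Bcl6b knockdown replicate 1. The fit of all probe sets was not.

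The number of arrays limits the precision. No 2 arrays were identical, and the labels give no batch. The 8 genes and the marker lists were chosen with earlier results of these data known. Named were the 8 genes, up to 6 called members of a list or else the 2 with the smallest p, all tested partners, and the 3 genes most alike to each of Plvap, Ramp2 and Mrc1 by Pearson r. Rasip1, Sall4, Kit and the dim and bright markers given as examples were named after their values were seen. Alternatives covered normalization, pseudocount, filter, probe sets per gene, array weights, trend, groups in the fit, a replicate block and each array left out. Figures were drawn with matplotlib 3.10.9.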

Additional observations from a re-analysis of the deposited data

Results flagged for a closer look

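In 32 groups of 4 arrays (8 genes in 4 groups), the highest or lowest array lay far from the other 3 in 3 groups by Dixon's test at the 95% level, where chance gives about 1.6. Plvap read 174.4 on Etv5 knockdown replicate 3, above 80.8 to 87.2 on the other Etv5 knockdown arrays. Plvap read 353.3 on Bcl6b knockdown replicate 1, above 266.7 to 277.6 on the others of its group. Pecam1 read 7.3 on control replicate 3, above 6.5 on each of the other control arrays, all near the floor of the signal.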

How the results depend on the processing

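Mrc1, Plvap, Ramp2 and Lyz2 were chosen on their lower values in Etv5 knockdown against control, so their values and counts of calls here show only how far the setting moves them and are no test. Over 26 alternatives the log2 difference between Etv5 knockdown and control was -1.46 to -1.0 for Mrc1, -1.56 to -1.18 for Plvap, -1.18 to -0.75 for Ramp2 and -1.92 to -1.12 for Lyz2, with Lyz2 lowest without Etv5 knockdown replicate 2. Leaving out 1 array gave 3 to 4 of the 8 genes lower, 3 to 4 of their probe sets, 2 to 3 endothelial markers and 1 to 3 macrophage markers. Macrophage markers lower were 3 with array weights, with only the groups compared and without Bcl6b knockdown replicate 1, and 2 without Etv5 knockdown replicate 2 or 3. Against Bcl6b knockdown the 3 genes lower became 0 with only those groups in limma's fit (3 at an unadjusted p under 0.05), and the cause was not tested. Cd68 (0.13 to 0.36) and Csf1r (-0.08 to 0.00) were called in none of their alternatives. Erg (0.22 to 0.50) was called in 17 of 26. Genes called in Etv5 knockdown, 233 in all and 87 lower, ranged from 128 to 1662 and from 36 to 928, with the highest under array weights (1662 and 928), 996 and 512 with only the groups compared, 1061 and 551 without Bcl6b knockdown replicate 1, and 154 and 51 with median centring. With the replicate number as a block 3 of the 8 genes and 57 genes in all were lower. Same-numbered Etv5 knockdown and control arrays deviated from their group means with correlations of -0.26 to 0.09, so the number was not treated as a pairing. Dim genes near the floor limit what can be detected.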
